A study of Homo sapiens with 9 samples.

Results

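DLD1 cells that had received either lamin siRNA were set against DLD1 cells that had received none. All 9 arrays of the series enter this comparison. The 6 siRNA-transfected arrays are 3 of Lamin A/C Kd and 3 of Lamin B2 Kd, and the other 3 are untreated controls. DLD1 is a human colorectal cancer cell line. Each knockdown used 100 nM of 1 siRNA for 48 h, and each array holds labeled RNA of an independent culture on a single-color Agilent whole-genome array. Control cultures were untreated, and none of the arrays comes from cells given a non-targeting siRNA. A change found in both knockdowns can therefore follow the loss of either lamin, the transfection or the uptake of an siRNA duplex, and these cannot be told apart with these arrays. RNA was read from whole cultures, so fewer cells of a state and less RNA per cell cannot be told apart either.

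Lamin A/C and Lamin B2 are intermediate filament proteins that form a meshwork under the inner nuclear membrane, and they come from different genes, LMNA and LMNB2. An siRNA guides the RNA-induced silencing complex to a transcript that pairs with it and the transcript is then cut. The same duplex can also lower other transcripts that pair with its seed, and double-stranded RNA or the lipid carrier can by themselves set off interferon, lysosomal or stress responses in mammalian cells.

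Signals are given as log2 of the processed intensity minus the median of the array, so that 0 is the median spot. Probes that the scanner software marked well above background on every one of the 9 arrays were kept, which left 30569 of 50238 probes and 20293 of 31033 gene names. The brightest probe stood for a gene with several. The pooled change is the mean of both knockdowns minus the controls, tested with limma across all probes kept. A gene was called where its Benjamini-Hochberg adjusted p was under 0.05 and both knockdowns lay on the same side of the controls. The median intensity of an array was 75.2 ± 6.38 (SD, n = 3) in controls and 70.4 ± 7.26 (SD, n = 6) on siRNA arrays (two-sided exact permutation test, p = 0.345). The share of spots well above background was 68.4 ± 0.373% (SD, n = 3) and 68.9 ± 3.64% (SD, n = 6) (two-sided exact permutation test, p = 0.869). The ratio of the 75th percentile to the median intensity was 8.93 ± 0.345 (SD, n = 3) and 8.15 ± 0.614 (SD, n = 6) (two-sided exact permutation test, p = 0.0595). With 84 possible splits the smallest p such a test can reach is 0.0119. Lamin B2 Kd replicates 2 and 3 had the highest shares, 74.1% and 72.8%. Replicate 3 of Lamin B2 Kd was also alone on a second slide, and its file lacked one of the spatial corrections of the other 8, so key counts are also given without it.

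Epithelial keratins were bright on all arrays, while several other members of the colon epithelial list were dim. Of 16 colon epithelial markers, 13 were well above background on all 9 arrays. The brightest of them was the keratin KRT18, at 11.65 in controls and 11.76 on siRNA arrays. CEACAM5 was the least detected, on 1 array. KRT19, KRT8 and CDH1 had means of 10.83, 10.58 and 8.58, and CDX2 and VIL1 of 4.05 and 2.68. LGALS4, CDX1, KRT20 and GPA33 had means of 0.03, −1.10, −1.26 and −1.42. The brightest members make up most of the summed signal. The summed linear signal of these markers, in units of the array median, was between 7804 and 8583 on controls and between 7296 and 9898 on siRNA arrays. Of 10 fibroblast, 10 immune and 6 endothelial markers, 3, 6 and 3 were well above background on all 9 arrays. The brightest were THY1 at a mean of 3.70, CD79A at 2.99 and VWF at 0.34. Of these markers not above background on all arrays, the fibroblast genes DCN and PDGFRB were above it on 8 and 7 arrays. The endothelial gene KDR was above it on 4. The others were seldom above background, among them the collagens COL1A1 and COL1A2 on 2 arrays each and the leukocyte antigen PTPRC on 2. The fibroblast proteoglycan LUM and the endothelial receptor TEK were above it on 0. The summed signals of the fibroblast and immune lists were at most 21.3 and 21.9, both on Lamin B2 Kd replicate 3, against at most 16.8 and 17.0 on controls.

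The siRNA targets were first read on every array. LMNA was at 8.79, 8.79 and 8.91 in controls, at 4.84, 5.14 and 5.03 in Lamin A/C Kd and at 8.83, 8.83 and 7.97 in Lamin B2 Kd. LMNB2 was at 5.44, 5.51 and 5.74 in controls, at 5.11, 5.31 and 5.18 in Lamin A/C Kd and at 3.1, 3.48 and 3.15 in Lamin B2 Kd. Each target was lowest in its own knockdown on all 3 arrays, as the labels say. Both genes were called lower in the pooled comparison, with most of the change in 1 of the knockdowns (LMNA −3.83 and −0.29, LMNB2 −0.36 and −2.32, in the A/C and the B2 knockdown). LMNB1, the other B-type lamin, was between 4.81 and 5.38 in controls and between 3.46 and 5.32 on siRNA arrays and was not called (pooled log2 change −0.81, limma adjusted p = 0.188).

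Between siRNA-transfected and untreated cells, 841 genes were called (4.14% of the genes tested), of which 139 were higher (0.685%) and 702 lower (3.46%). At least 2-fold changes were seen in 83 of them (0.409%), 36 higher (0.177%) and 47 lower (0.232%). The siRNA arrays all lay above the controls in 99 of the called rises, against 1.76% of all genes tested, and all below them in 577 of the called falls, against 11.6%. Together these 676 genes were 80.4% of the called genes, against 13.4% of all genes tested. The call itself asks for a small p and for both knockdowns on the same side, so this separation is a description only. Genes just inside the threshold were ELF4 and ZNF650 (both at an adjusted p of 0.0499), and KIFC1 (0.0502) was just outside. The called rises came from dimmer probes than the falls, with a median log2 signal of 1.51 against 3.56, beside 2.70 for all genes tested.

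The split between rises and falls depended on how the arrays were scaled. With the median shift the median change over all genes was −0.10, and 16.5% of the called genes rose. When each array was instead shifted by its 75th percentile, the median change became 0.04, with 574 rises and 603 falls (48.8% rises). Quantile normalization gave 450 rises and 549 falls. The number of called genes depended on single arrays. It was 51 without Control replicate 1, 58 without Control replicate 2 and 39 without Control replicate 3. It was 219, 242 and 455 without Lamin A/C Kd replicates 1, 2 and 3, and 2050 without Lamin B2 Kd replicate 3. In a model with 2 groups, 6 arrays against 3, 23 genes were called, all of them among the 841.

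**Figure D1:**
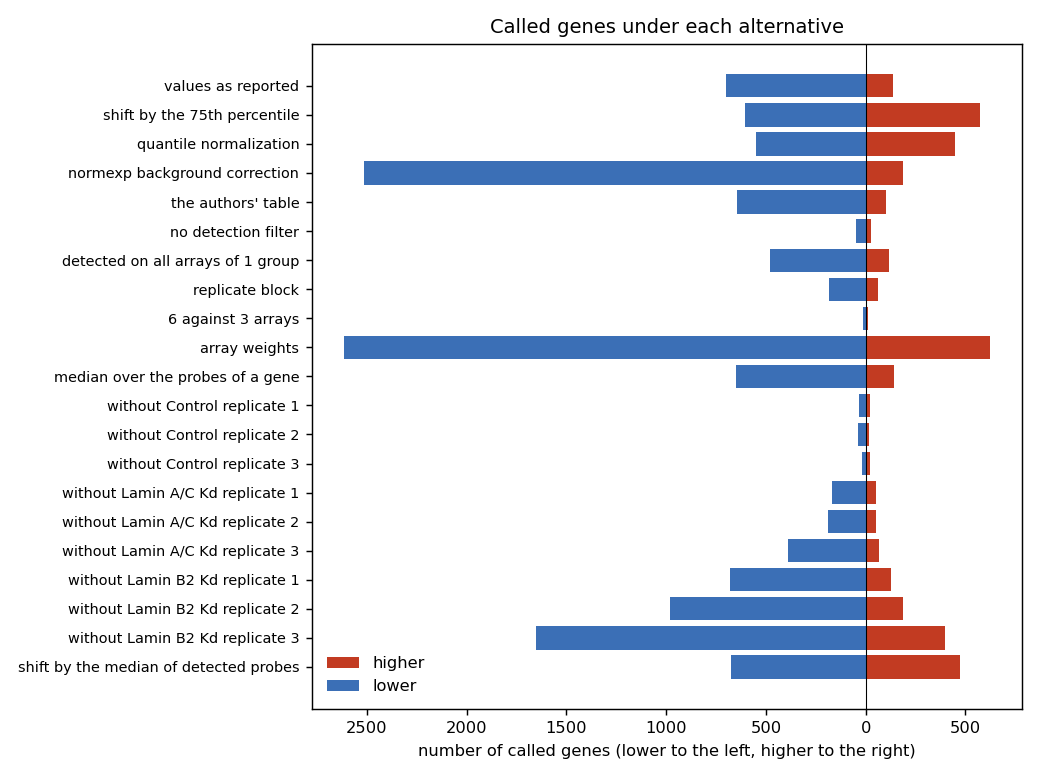
Number of genes called higher (red, to the right) and lower (blue, to the left) in siRNA-transfected against control arrays, as reported and under each alternative processing. The bars shrink most where 1 control array is left out (39 to 58 genes) or where the 6 arrays form 1 group (23 genes).

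TAF5L had the largest rise by the brightest-probe rule. It encodes a WD40 repeat subunit of SAGA, a coactivator complex that acetylates histones. The probe for its transcript NM_014409 was at −0.09, −0.16 and −0.45 in controls. It was at 3.43, 2.98 and 2.67 in Lamin A/C Kd and at 3.85, 2.21 and 2.38 in Lamin B2 Kd. No siRNA array came near the controls, and the pooled log2 change was 3.16 (95% CI 2.41 to 3.90, limma adjusted p = 0.00455), or 8.91-fold. The knockdowns differed by 0.21 (95% CI −0.64 to 1.07, adjusted p = 0.750), an interval that leaves room for a difference of either sign. TAF5L was called under all 20 alternatives, but with the median over its probes in place of the brightest the change was 1.56. On the probe for NM_014409 itself the change was 2.233 with normexp background correction and 2.265 in the authors' table.

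A second probe for TAF5L, for transcript NM_001025247, gave no such rise. The probe for NM_014409 stands for the gene only through its level on the siRNA arrays, since in controls it averaged below the second. The second probe was at −0.18, −0.17 and −0.03 in controls, at −0.30, −0.33 and −0.39 in Lamin A/C Kd and at −0.06, −0.05 and 0.18 in Lamin B2 Kd. Its pooled change was −0.03 (95% CI −0.25 to 0.19, limma adjusted p = 0.873), and it was called under 0 of 18 alternatives. The files do not place the probes on the transcripts, so which RNA each reads was not tested. The first 30 bases of each of the 60-base probes, 5′ to 3′ as the array files list them, show that they are different stretches, and that of HOXB8 is given with them.

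TAF5L, NM_014409, higher: tcctggcactggttttgatacttggaattt

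TAF5L, NM_001025247, not called: tgagatgatagaaagtacaaaatcactatg

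HOXB8, NM_024016, higher: gctgtgggcaattgttacaagtgttcttag

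Other subunits did not rise with TAF5L. Of 20 SAGA subunits tested, TAF5L was called higher (5%, against 0.685% of all genes) and TAF12 lower (5%, against 3.46%), with a median change of −0.23 against −0.10 over all genes. TAF12, a histone fold subunit that SAGA shares with TFIID, was between 5.54 and 5.65 in controls and between 4.62 and 5.50 on siRNA arrays. Its pooled change was −0.50 (adjusted p = 0.0284), made up of −0.15 after Lamin A/C Kd and −0.85 after Lamin B2 Kd (adjusted p of the difference = 0.00372). Of 15 TFIID subunits tested, TAF12 was the 1 called (6.67%), and a single call in so short a list says nothing about the list.

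HOXB8, a homeobox transcription factor of the HOXB cluster on chromosome 17, was the next largest rise. It was at 1.77, 0.73 and 0.83 in controls, at 3.71, 4.01 and 4.71 in Lamin A/C Kd and at 3.04, 2.45 and 4.42 in Lamin B2 Kd. The groups did not overlap, although Control replicate 1 stood above the other controls. The pooled change was 2.62 (95% CI 1.69 to 3.55, limma adjusted p = 0.0140), or 6.13-fold. The knockdowns differed by 0.84 (95% CI −0.23 to 1.91, adjusted p = 0.274). Across the alternatives its change lay between 2.17 and 2.94, and the adjusted p rose above 0.05 in 4 of 20, the highest 0.102. HOXB8 was the 1 called member of 24 HOX genes tested (4.17%, near the 4.14% of all genes), whose median change was −0.06. HOXA2 had a pooled change of 1.74 with an adjusted p of 0.551, since Lamin A/C Kd replicate 2 alone read 10.64 while the other 8 arrays lay between 1.27 and 2.22. The other 22 lay between −0.68 and 0.38.

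**Figure D2:**
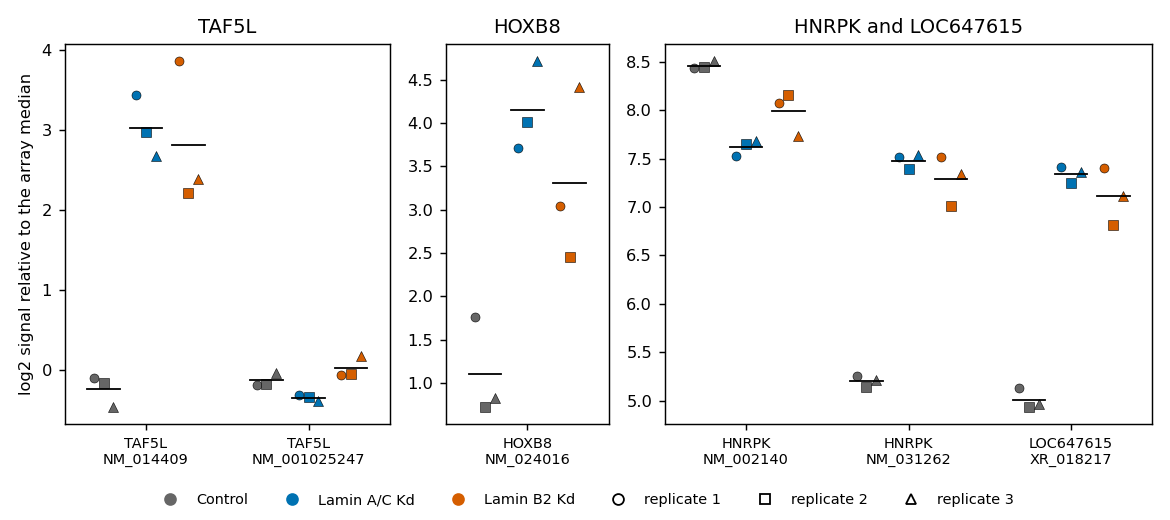
Log2 signal relative to the array median of each probe of TAF5L, HOXB8, HNRPK and LOC647615 on each array. Color gives the group, the symbol the replicate, and the line the group mean. The TAF5L probe for NM_014409, HOXB8, the HNRPK probe for NM_031262 and LOC647615 were higher on all 6 siRNA arrays than on any control, while the second TAF5L probe and the brightest HNRPK probe were not.

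HNRPK, which encodes the abundant RNA-binding protein hnRNP K, had probes that moved in opposite directions. It is described here, with the entry LOC647615, which has no gene name in the reference, after their values were seen. The probe for transcript NM_031262 was between 5.15 and 5.26 in controls and between 7.01 and 7.54 on siRNA arrays, a pooled change of 2.18 (95% CI 1.91 to 2.45, limma adjusted p = 0.000276). LOC647615, which the design lists by the entry XR_018217, was between 4.94 and 5.14 in controls and between 6.81 and 7.42 on siRNA arrays, a pooled change of 2.21 (95% CI 1.91 to 2.51, adjusted p = 0.000295). The brightest HNRPK probe, for NM_002140, moved the other way, from between 8.44 and 8.51 in controls to between 7.52 and 8.16, a pooled change of −0.66 (adjusted p = 0.0190). By the rule of the brightest probe HNRPK counts among the falls, but this probe was called in 11 of 18 alternatives and lost its call without any 1 of the controls, with an adjusted p of up to 0.137. In the authors' table the probe for NM_031262 is joined with others in 1 row, and its change there was 0.01. LOC647615 was called under all 19 alternatives. The first 30 of 60 bases show that the rising probes are not copies of each other, and the longest run they share is 5 bases.

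HNRPK, NM_031262, higher: tgatcttggtggacctattattactacaca

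LOC647615, XR_018217, higher: ggtctgcagattaaacaaatccgtcatgag

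HNRPK, NM_002140, lower: agcagtactacaagttgagtaatggtatga

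UBE2E1 and MAGOH followed in size among genes with a name in the reference, by the brightest-probe rule. The unnamed entries LOC647615 and AK126814 lay between them. AK126814, singled out after its value was seen, had a pooled change of 2.03 (limma adjusted p = 0.00240). UBE2E1, a ubiquitin-conjugating enzyme, was at 0.33, −0.19 and 2.02 in controls and between 2.24 and 3.72 on siRNA arrays, with a median of 2.93. Control replicate 3 reached close to the lowest siRNA array, and the pooled change was 2.30 (95% CI 1.27 to 3.33, limma adjusted p = 0.0289). MAGOH, a core protein of the exon junction complex that marks spliced mRNA, was at 4.87, 4.88 and 4.98 in controls and between 5.60 and 7.56 on siRNA arrays, with a median of 7.07. Its controls were tightly grouped and all below Lamin B2 Kd replicate 2, the lowest siRNA array, and the pooled change was 1.95 (95% CI 1.14 to 2.76, adjusted p = 0.0225). UBE2E1 lost its call in 4 and MAGOH in 5 of the 9 fits with 1 array left out, with an adjusted p of up to 0.133 for UBE2E1 and 0.123 for MAGOH across the alternatives.

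ANGPTL4, a secreted inhibitor of lipoprotein lipase, was at 3.54, 4.42 and 4.11 in controls and between 4.58 and 6.71 on siRNA arrays. Its pooled change was 1.65 (adjusted p = 0.0118), and it was the 1 gene of the 15 largest rises with a gene name in the reference that differed between the knockdowns, by 2.29 in Lamin A/C Kd against 1.01 in Lamin B2 Kd (adjusted p = 0.0140). SOCS3, an inhibitor of cytokine signaling, was at 0.59, 0.52 and 0.57 in controls and between 1.17 and 1.84 on siRNA arrays. The pooled change of SOCS3 was 0.95 (adjusted p = 0.0137). FAM19A4, a small secreted protein now named TAFA4, rose by 1.37 (adjusted p = 0.0325). BIRC7, an inhibitor of apoptosis protein, rose by 1.01 (adjusted p = 0.0160), and PADI4, which converts arginine to citrulline in histones and other proteins, by 1.07 (adjusted p = 0.0221). All 3 were dim, with control signals of at most 0.01.

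LIMK1, the kinase that inactivates the actin-severing protein cofilin, rose by 1.06 (adjusted p = 0.0164). IPO7, a nuclear import receptor, rose by 0.98 on its brightest probe (adjusted p = 0.0243) and by 1.01 on its other probe (adjusted p = 0.00547). MANSC1, a membrane protein, rose by 1.60 (adjusted p = 0.0118), and TBCCD1, which helps to place the centrosome and Golgi apparatus, by 1.38 (adjusted p = 0.0145). MANSC1 and TBCCD1 were dim too, with control means of −0.41 and −0.75. Each lost its call in 4 of 20 alternatives, where the changes went down to 0.92 and 0.70. IGKV2-24, an immunoglobulin light chain segment, and OR1J4, an olfactory receptor, changed by 1.05 and 0.92, and a second OR1J4 probe changed by 0.10 (adjusted p = 0.747). A short probe for a gene of such a family can pick up its relatives, which was not tested here.

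Of the 15 largest rises regardless of name, 8 had no gene name in the reference. LOC647615 is 1 of them, and 4 others, AF264621, LOC57400, AY227436 and AF100640, are clone entries that the files list by GenBank number. AY227436 was at 6.41, 6.69 and 6.38 in controls and between 7.69 and 8.27 on siRNA arrays, a pooled change of 1.43 (95% CI 1.15 to 1.71, limma adjusted p = 0.00240). AF264621 changed by 1.50 (adjusted p = 0.00579), LOC57400 by 1.43 (adjusted p = 0.00579) and AF100640 by 1.26 (adjusted p = 0.00978). Each was above background on the controls too, and no siRNA array overlapped them. Set beside these 4 were 5 further entries not above background on all arrays, and the array holds other unnamed clone entries too. Of the 5, AF264625 was above background on 8 arrays, with a mean of −1.43 in controls and −1.38 on siRNA arrays. AF264623, AF264622, LOC648556 and LOC57399 were above it on at most 1. Together these 9 entries were singled out after their values were seen, and whether the probes read human RNA or that of another organism in the cultures was not tested. Their rises can therefore not be read as changes of human genes.

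**Figure D3:**
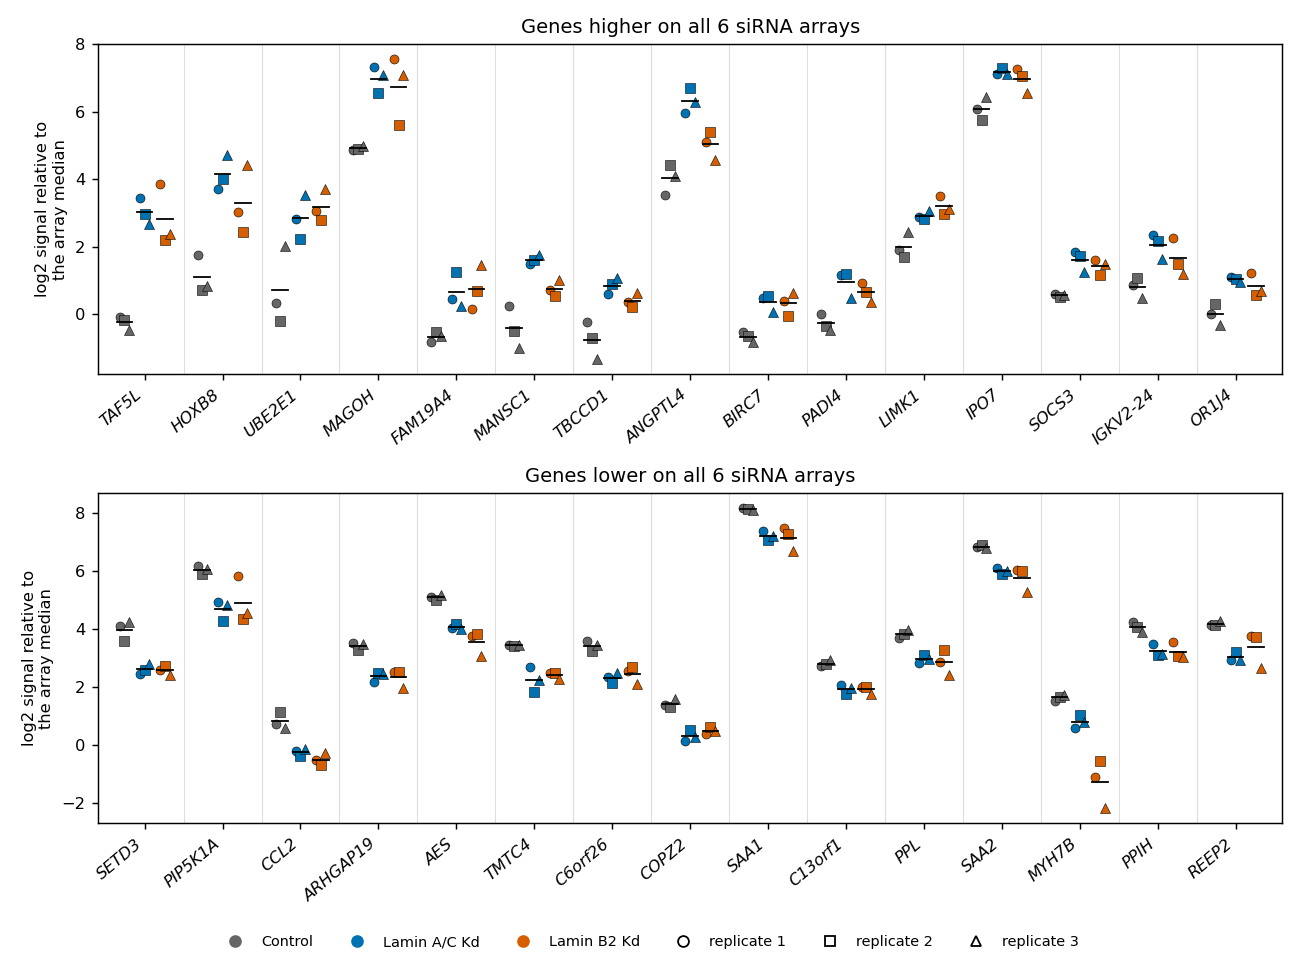
Log2 signal relative to the array median of the 15 largest rises (top) and 15 largest falls (bottom) with a gene name in the reference, ordered by the smaller of the changes in the 2 knockdowns. Each symbol is 1 array and each line a group mean. All 6 siRNA arrays lie on 1 side of the 3 controls, as the choice of these genes required.

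SETD3, the methyltransferase that modifies a histidine of actin, was first among the falls when ordered by the smaller of the knockdown changes. It was at 4.10, 3.60 and 4.23 in controls and between 2.41 and 2.81 on siRNA arrays. The siRNA arrays were close together and well below every control, and the pooled change was −1.38 (95% CI −1.72 to −1.03, limma adjusted p = 0.00561). The knockdowns differed by 0.05 (95% CI −0.35 to 0.45). A second SETD3 probe, for another transcript, changed by −0.06 (adjusted p = 0.773). SETD3 kept its call under all 19 alternatives, but its change there lay between −1.565 and −0.720. Of these 30 genes TAF5L, SETD3, CCL2 and COPZ2 were the 4 called whichever array was left out.

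A chemokine and acute phase genes were among the largest falls. CCL2, a chemokine that attracts monocytes, was at 0.73, 1.14 and 0.60 in controls and between −0.68 and −0.14 on siRNA arrays. Its pooled change was −1.18 (95% CI −1.50 to −0.86, limma adjusted p = 0.00719), and across the alternatives it lay between −1.29 and −0.63. SAA1, an acute phase protein, was at 8.17, 8.15 and 8.11 in controls and between 6.69 and 7.50 on siRNA arrays, a pooled change of −0.96 (adjusted p = 0.0187). SAA2 changed by −0.95 on its brightest probe (adjusted p = 0.0172), and its knockdowns did not pass the test of a difference there (adjusted p = 0.438). On its 4 other probes Lamin B2 Kd lay below Lamin A/C Kd by 0.70 to 1.32 (adjusted p of the difference between 0.000344 and 0.0117). Of these 4 probes 2 were not called, and their Lamin A/C Kd arrays overlapped the controls. Because SAA1 and SAA2 are near-identical copies on chromosome 11, their probes may share signal, and they are not counted as separate evidence here. LTB, a cytokine of the tumor necrosis factor family, was at 5.73, 5.85 and 5.81 in controls and between 4.21 and 5.24 on siRNA arrays, a pooled change of −0.89 (adjusted p = 0.0189). On the brightest probe of each of these genes, no siRNA array reached the lowest control. Of 24 immediate early and NF-kB target genes tested, LTB and EGR1 were called lower (8.33%, against 3.46% of all genes) and 0 higher, with a median change of −0.11 against −0.10 over all genes. Under the 75th percentile and under quantile normalization, 3 were called higher and 1 lower. Rises over all genes numbered 574 and 450 there, against 139 as reported. LTB lost its call in 7 and EGR1 in 14 of 20 alternatives. Without any 1 of the controls, 0 genes of this list were called, while over all genes 51, 58 and 39 were.

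PIP5K1A, which makes the lipid PI(4,5)P2, changed by −1.25 (adjusted p = 0.0470), and its second probe by −0.75 (adjusted p = 0.0822). PIP5K1A lost its call in 12 of 19 alternatives. COPZ2, a subunit of the COPI vesicle coat, was at 1.40, 1.33 and 1.58 in controls and between 0.14 and 0.62 on siRNA arrays. It fell by 1.03 (adjusted p = 0.00579) and kept its call under all 20 alternatives. PPL, the desmosomal protein periplakin, fell by 0.92 (adjusted p = 0.0258). REEP2, which shapes endoplasmic reticulum membrane, fell by 0.99 (adjusted p = 0.0425), and TMTC4, a mannosyltransferase of that compartment, by 1.10 (adjusted p = 0.0118). PPL lost its call in 8, REEP2 in 10 and TMTC4 in 5 of 20 alternatives. The other TMTC4 probe changed by −0.54 (adjusted p = 0.0728), −0.23 after Lamin A/C Kd and −0.85 after Lamin B2 Kd (adjusted p of the difference = 0.0357). MYH7B, a myosin heavy chain, was at 1.51, 1.68 and 1.75 in controls, between 0.60 and 1.04 in Lamin A/C Kd and between −2.18 and −0.53 in Lamin B2 Kd. It was the 1 gene of the 15 falls that differed between the knockdowns (adjusted p = 0.00345).

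AES, a Groucho family corepressor now named TLE5, was at 5.11, 5.02 and 5.17 in controls and between 3.08 and 4.17 on siRNA arrays, a pooled change of −1.28 (adjusted p = 0.00775). The other AES probes were below the controls on every siRNA array too but were not called (adjusted p = 0.0693 and 0.0842). PPIH, a cyclophilin of the spliceosome, fell by 0.83 (adjusted p = 0.0223). C6orf26, now SAPCD1, and C13orf1, now SPRYD7, fell by 1.03 (adjusted p = 0.0104) and 0.89 (adjusted p = 0.00726). The interval of the difference between the knockdowns for C13orf1 was −0.29 to 0.28 on this probe and −1.08 to −0.05 on its other called probe (both 95% CI), where the adjusted p of the difference was 0.131.

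A second contrast in the same fit set the knockdowns against each other and used no control level. Of the 841 called genes, 371 differed (44.1%), against 17.0% of all genes tested. Both contrasts use the same estimate of the spread of a probe, so probes with a small spread pass both more easily. These shares are therefore a description only. The absolute change was larger in Lamin A/C Kd for 568 of the called genes and larger in Lamin B2 Kd for 273. The other 470 genes, 81 higher and 389 lower, did not pass this test, which does not show that the knockdowns acted alike on them. Among the 83 genes changed at least 2-fold, 46 did not pass it, and 28 changed at least 2-fold in each knockdown (16 higher, 12 lower).

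**Figure D4:**
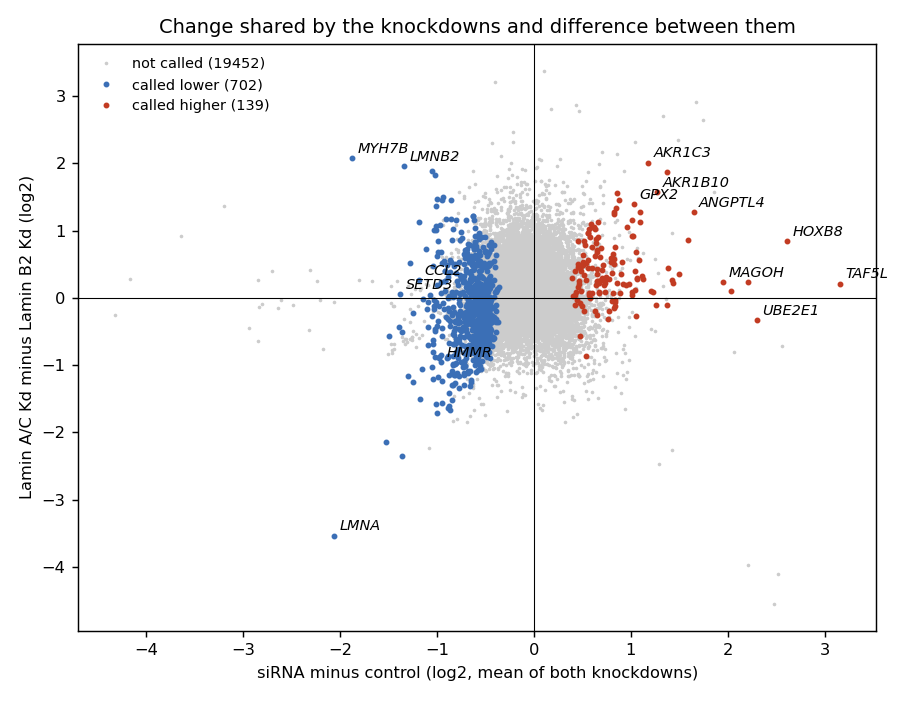
Each point is 1 of 20293 genes. The horizontal axis is the pooled siRNA minus control change and the vertical axis is Lamin A/C Kd minus Lamin B2 Kd, both in log2. TAF5L, HOXB8, UBE2E1 and MAGOH lie far to the right, at 0.21, 0.84, −0.33 and 0.24 on the vertical axis, while LMNA and LMNB2, the siRNA targets, lie far from 0 on it.

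In the fit as reported, genes of DNA replication were the list with the most falls, which did not hold under every alternative. Of 36 tested, 9 were called lower (25%, against 3.46% of all genes) and 0 higher. The median change was −0.39 against −0.10 over all genes, with −0.47 after Lamin A/C Kd (−0.04 over all genes) and −0.29 after Lamin B2 Kd (−0.15 over all genes). MCM6, a subunit of the replicative helicase, was at 8.62, 8.55 and 8.69 in controls, between 7.18 and 7.56 in Lamin A/C Kd and between 8.42 and 8.55 in Lamin B2 Kd. All its siRNA arrays were thus at or below the lowest control, with most of the change in Lamin A/C Kd (pooled change −0.68, limma adjusted p = 0.0145, adjusted p of the difference = 0.000716). CHAF1B, a subunit of the CAF-1 histone chaperone, was between 7.22 and 7.31 in controls and between 6.26 and 6.76 on siRNA arrays. Its pooled change was −0.65 (adjusted p = 0.0276), −0.61 after Lamin A/C Kd and −0.68 after Lamin B2 Kd.

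CHAF1A, its partner in CAF-1, fell by 0.62 (adjusted p = 0.0368), and CDC45L, the helicase cofactor now named CDC45, by 0.61 (adjusted p = 0.0334). UHRF1, which helps to copy DNA methylation, fell by 0.55 (adjusted p = 0.0260), and GINS2, another helicase cofactor, by 0.51 (adjusted p = 0.0256). TYMS, which makes thymidylate, fell by 0.43 (adjusted p = 0.0476), and POLA1 and PCNA, the primase-associated polymerase and the sliding clamp, fell by 0.39 each. The number of these calls depended on the controls and on single arrays, as it did over all genes. Without any 1 of the 3 controls 0 of the 36 genes were called, without Lamin A/C Kd replicate 1 or 2 there was 1, without its replicate 3 there were 4, and leaving out Lamin B2 Kd replicate 3 gave 19. Falls over all genes numbered 31, 40 and 18 without Control replicates 1, 2 and 3. The median of the list minus that of all genes was −0.297, −0.288 and −0.282 there, against −0.292 as reported. The 0 calls therefore do not show that the list lost its shift. Quantile normalization gave 4 calls, the 75th percentile 6 and normexp correction of the background 28, all lower. Over all 20293 genes, falls numbered 702 as reported and 1651 without Lamin B2 Kd replicate 3. They numbered 549 with quantile normalization, 603 with the 75th percentile and 2513 with normexp correction. Of 36 genes of mitosis, 4 were called lower (11.1%, against 3.46% of all genes) and 0 higher, with a median change of −0.33 against −0.10 over all genes. HMMR, a spindle protein, was between 6.84 and 6.99 in controls and between 5.36 and 6.54 on siRNA arrays, a pooled change of −0.96 (adjusted p = 0.00459). AURKA, a spindle kinase, changed by −0.53, SPC24, a kinetochore protein, by −0.57, and CENPE, a kinetochore motor, by −0.50 (adjusted p between 0.0220 and 0.0496). With 1 array left out, 1 mitosis gene was called without any of the controls or without Lamin A/C Kd replicate 1 or 2, 2 without Lamin A/C Kd replicate 3 and 12 without Lamin B2 Kd replicate 3. Normexp correction gave 25, the 75th percentile 7 and quantile normalization 4. Falls over all genes moved with these settings too, as given for the replication genes.

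E2F factors are known to switch on genes of DNA replication through short sites near their start. The RefSeq promoters (GRCh38.p14) of these genes were searched for TTTCCCGC, TTTCGCGC, TTTGCCGC and TTTGGCGC on both strands, over the 250 bases before the start. Of 33 replication genes matched to a promoter, 14 held at least 1 of these words (42.4%), against 4.3% of the promoters of all matched genes tested and 2.8% of all promoters. It was 6 of the 9 called genes (66.7%), MCM6, PCNA, GINS2, POLA1, TYMS and UHRF1. Of all called falls matched to a promoter 6.9% held 1, and of all called rises 8.9%. The promoter of MCM6 is given because it holds 4 matches, which overlap in pairs, at chr2:135876444-135876693 on the minus strand. The matches are in capitals, and they are a description of the letters and not of bound sites.

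MCM6: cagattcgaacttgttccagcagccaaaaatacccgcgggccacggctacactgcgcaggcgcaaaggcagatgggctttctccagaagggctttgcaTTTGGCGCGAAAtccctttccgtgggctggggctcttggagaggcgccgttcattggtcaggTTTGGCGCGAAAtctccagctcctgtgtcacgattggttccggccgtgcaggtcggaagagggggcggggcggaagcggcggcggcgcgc

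PCNA, at chr20:5126623-5126872 on the minus strand, holds 1 match, read on the opposite strand.

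PCNA: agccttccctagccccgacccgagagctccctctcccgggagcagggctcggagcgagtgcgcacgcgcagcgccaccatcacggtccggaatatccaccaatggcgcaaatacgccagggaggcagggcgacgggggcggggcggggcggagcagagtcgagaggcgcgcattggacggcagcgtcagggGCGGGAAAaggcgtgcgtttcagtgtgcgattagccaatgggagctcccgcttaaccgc

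Targets of NRF2, the transcription factor that answers oxidants, and the aldo-keto reductases were the list with the most rises. Of 29 tested, 7 were called higher (24.1%, against 0.685% of all genes) and 0 lower, with a median change of 0.20. AKR1B10, a reductase of aldehydes and retinal, was at 1.35, 1.47 and 1.90 in controls, between 3.50 and 3.72 in Lamin A/C Kd and between 1.96 and 2.22 in Lamin B2 Kd. GPX2, a glutathione peroxidase of the gut, was at 0.19, 0.37 and 0.41 in controls, between 1.82 and 2.28 in Lamin A/C Kd and between 0.53 and 0.76 in Lamin B2 Kd. For both genes every siRNA array lay above every control, and the Lamin A/C Kd arrays lay above all of the Lamin B2 Kd arrays. The pooled changes were 1.27 (adjusted p = 0.00543) and 1.04 (adjusted p = 0.00652), and the differences between the knockdowns were 1.57 and 1.39 (adjusted p = 0.000382 and 0.000414).

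The rises of AKR1C3, another aldo-keto reductase, and NQO1, a quinone reductase, were 1.18 (adjusted p = 0.00829) and 0.84 (adjusted p = 0.00716). AKR1C3 changed by 0.17 in Lamin B2 Kd, where its arrays overlapped the controls. UGDH, which makes UDP-glucuronate, FTL, the ferritin light chain, and GCLC, which starts glutathione synthesis, rose by 0.68, 0.60 and 0.46 (adjusted p between 0.0114 and 0.0416). All 7 were larger in Lamin A/C Kd (adjusted p of the difference between 0.000245 and 0.0265). The median of the list was 0.56 after Lamin A/C Kd and 0.05 after Lamin B2 Kd. Genes of the list called higher numbered 12 under the 75th percentile and under quantile normalization. Rises over all genes numbered 574 and 450 there, against 139 as reported. In the list 2 were called higher without Control replicate 1, 4 without either of the other controls and 11 without Lamin B2 Kd replicate 3. Rises over all genes numbered 20, 18 and 21 without Control replicates 1, 2 and 3, and 399 without Lamin B2 Kd replicate 3. Normexp correction of the background gave 9 higher and 2 lower in the list, beside 187 higher and 2513 lower over all genes. The antioxidant response letters TGACNNNGC, searched in the same way, were in 5 of 22 promoters of the list (22.7%), in 1 of the 6 called genes matched (16.7%), in 18.2% of the replication genes and in 12% of all matched genes tested.

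**Figure D5:**
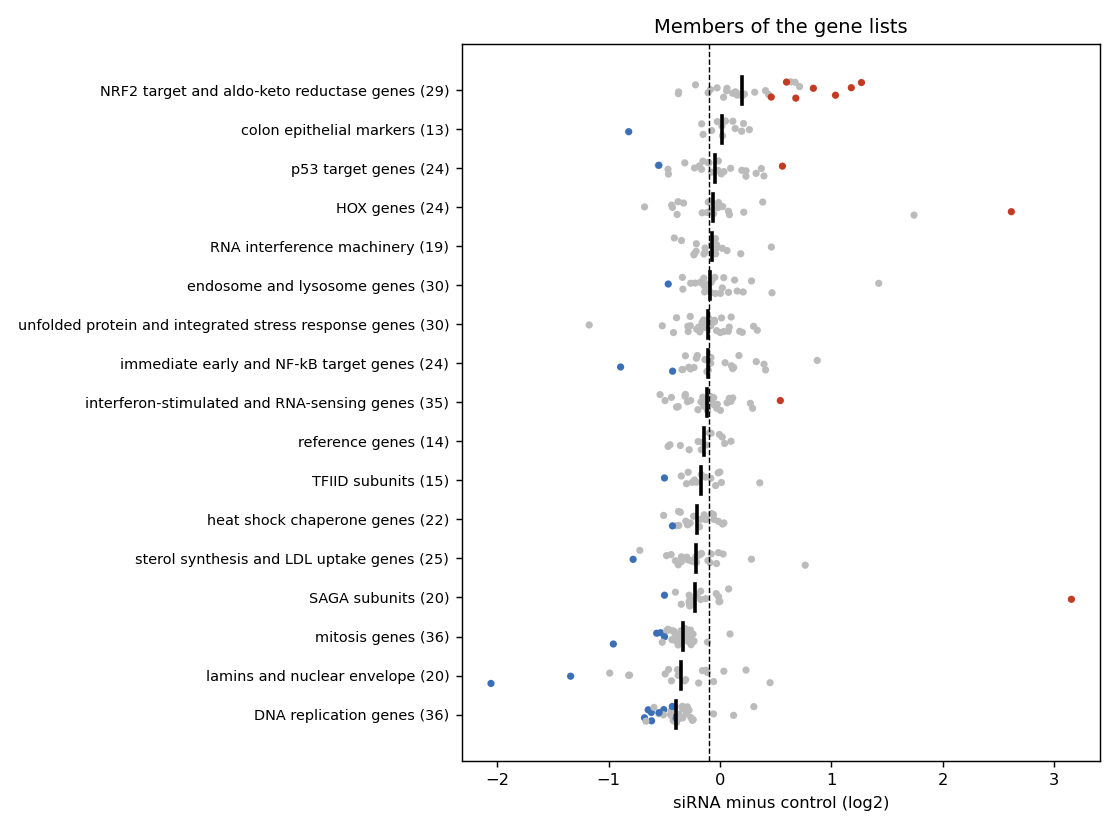
Pooled siRNA minus control change of the members of 17 gene lists, with the number tested in brackets. Red points were called higher, blue points lower and gray points were not called. The black bar is the median of the list and the dashed line the median of all genes (−0.10). The medians of replication (−0.39) and mitosis (−0.33) genes lie to the left of the dashed line and that of NRF2 target genes (0.20) to the right.

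Genes of the known side effects of transfection were read from further lists, and a share called near the 4.14% of all genes says nothing about such a list. Of 35 interferon-stimulated and RNA-sensing genes tested, IFIT2 was the 1 called (2.86%), and the median change was −0.12. IFIT2, which binds foreign RNA, was at 1.14, 1.10 and 1.15 in controls, between 1.85 and 2.06 in Lamin A/C Kd and between 1.37 and 1.48 in Lamin B2 Kd. Every siRNA array was above the controls, with a pooled change of 0.54 (adjusted p = 0.0185) and a difference between the knockdowns of 0.52 (adjusted p = 0.00996). The sensor IFIH1 changed by 0.06 (adjusted p = 0.775), OAS1 by 0.11 (adjusted p = 0.724) and IFI6 by 0.08 (adjusted p = 0.702).

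Of 19 genes of the RNA interference machinery, 0 were called, with a median change of −0.08. Of 30 endosome and lysosome genes, EEA1, an early endosome tether, was called lower (3.33%, pooled change −0.47, adjusted p = 0.0425), and the lysosomal protease CTSZ had a change of 1.43 with an adjusted p of 0.159. Among 30 genes of the unfolded protein and integrated stress response 0 were called, and the median change was −0.11. Of 22 heat shock chaperone genes, CHORDC1 was called lower (−0.43, adjusted p = 0.0417). Of 24 p53 target genes, TNFRSF10B, a death receptor, was called higher (0.56, adjusted p = 0.0194) and ISG20L1, a nuclease now named AEN, lower (−0.55, adjusted p = 0.0401). The probes of TNFRSF10B did not all move in the same direction. Across 20 alternatives TNFRSF10B lost its call in 9 and ISG20L1 in 11, and the change of TNFRSF10B lay between 0.27 and 0.74. Of 25 genes of sterol synthesis and LDL uptake, PMVK, a mevalonate pathway kinase, was called lower (−0.78, adjusted p = 0.0315). The median of the sterol list was 0.07 after Lamin A/C Kd and −0.51 after Lamin B2 Kd. Of 14 reference genes, including ACTB and GAPDH, 0 were called, and their median change was −0.14.

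Of the 20 lamin and nuclear envelope genes, LMNA and LMNB2, the siRNA targets, were the 2 called (10%, against 3.46% of all genes called lower). The median change was −0.35 against −0.10 over all genes. Of these genes 4 were called lower without Lamin B2 Kd replicate 2 and 6 without its replicate 3. Falls over all genes then numbered 978 and 1651, against 702 as reported. Of 13 colon epithelial markers tested, VIL1, the microvillus protein villin, was called lower (7.69%, against 3.46% of all genes), with a change of −0.82 (adjusted p = 0.0388) that lost its call in 12 of 19 alternatives. For the fibroblast, immune and endothelial lists, 3, 6 and 3 genes were tested and 0 called.

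Some probes were above background in 1 condition only. Probes of 11 genes were well above background on all 6 siRNA arrays and on 0 control arrays, and probes of 11 genes did the reverse, of 19669 probes not detected on all arrays (0.0559% each). They were chosen for being above background in 1 condition, so their values are a description with no test. For these the fold is a lower bound, taken with each array of the dim group at no less than the lowest signal well above background on it. TMEM204, a membrane protein, was at −2.10, −2.09 and −2.52 in controls and between −0.71 and 0.13 on siRNA arrays, which is at least 3.46-fold higher. Another TMEM204 probe, detected on all arrays, changed by 0.00. PTGS2, the inducible cyclooxygenase of prostaglandin synthesis, was at least 2.04-fold higher. FBXL17, an F-box protein, was at least 3.23-fold higher, and its probe detected on all arrays changed by 0.07. AF222023, an unnamed clone, was at least 3.02-fold higher, with Lamin B2 Kd replicate 3 at 1.58 and the other siRNA arrays between −1.22 and −0.64. QRFP, a neuropeptide, was at least 2.68-fold higher, with Lamin A/C Kd replicate 1 at 1.57 and the other siRNA arrays between −1.53 and −0.58. Another QRFP probe was detected on all arrays. PNLDC1, an RNA-trimming exonuclease, was detected in controls only and was at least 3.51-fold lower on siRNA arrays, with Control replicate 1 at 1.75 and the other controls at −0.91 and −1.50. MGC29891 was at least 2.17-fold lower. HsapiAK054750 was at least 2.08-fold lower, again with Control replicate 1, at 0.22, above the other controls, at −1.62 and −1.82. MGC29891 and HsapiAK054750 each had another probe that was detected on all arrays.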

How the data were processed

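RNA of 9 cultures, 3 in each group, which the study's methods call independent biological replicates, was hybridized to 1 array each. For every array the authors deposited Feature Extraction files (version 10.5 per the submitters' notes), whose processed intensity is background-subtracted and spatially detrended. The deposited log2 values of the authors, normalized at the 50th percentile and centered per row, are blank in 20266 of 50238 rows. They served as an alternative, and the Lamin B2 Kd columns were used by group only because their set numbers do not follow the titles.

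The log2 intensity minus the array median was averaged per probe after outlier spots were left out, and saturation was not seen. Probes counted as detected where at least 0.5 of their spots were well above background. A model with 3 group means over 9 arrays was fitted with limma 3.58.1 (R 4.3.3), with p values adjusted over all probes kept. The methods of the study name no test for the array values. Between 65.6 and 74.1% of spots stood well above background on an array, and the number of arrays limits the precision.

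Gene names and promoters came from RefSeq (GRCh38.p14), matched for 32769 of 50238 probes. The array files use an older build, so only RefSeq promoter positions are given. Named genes were the lamins, TAF5L and HOXB8 with every probe, the 15 largest rises and 15 largest falls by the smaller knockdown change among named genes called with all siRNA arrays on 1 side of the controls, up to 4 called members per list, and the 8 largest bounds. The members, lists and tests were chosen with earlier results of these data known. Whether the set numbers pair the arrays was checked by correlating deviations from the group means (r between −0.0710 and 0.137 over 9 pairs, 1 of them over 0.1), and they were not taken as pairs. The fit was tested on simulated data. Alternatives covered scaling, normalization, background, the authors' table, detection, a replicate block, 2 groups, array weights, probes and each array left out.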

Additional observations from a re-analysis of the deposited data

Results flagged for a closer look

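Among the 55 named genes, 16 differed between the knockdowns in the limma contrast (adjusted p under 0.05). For genes lower in Lamin A/C Kd, the difference Lamin A/C Kd minus Lamin B2 Kd on the log2 scale was −3.54 for LMNA, −1.09 for MCM6, −0.96 for HMMR, −0.71 for CHORDC1, −0.58 for EGR1 and −0.42 for AURKA. For genes higher in Lamin A/C Kd it was 2.08 for MYH7B, 2.01 for AKR1C3, 1.96 for LMNB2, 1.57 for AKR1B10, 1.39 for GPX2, 1.28 for ANGPTL4, 0.75 for NQO1, 0.69 for TAF12, 0.52 for IFIT2 and 0.44 for TNFRSF10B. LMNA and LMNB2 are the targets of the siRNAs.

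In 4 of the 55 genes, 1 of the 6 siRNA arrays stood apart from the others, and it was Lamin B2 Kd replicate 3, the array on its own slide, each time. Its gap to the nearest array, as a share of the range of the 6, was 0.770 for SAA2, 0.697 for IPO7, 0.654 for LTB and 0.639 for AES, above the critical value of Dixon's test for 6 samples. Chance flags about 1 in 20 groups. Without that array all 4 were still called in the same direction.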

How the results depend on the processing

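Of the 54 called named genes, 9 kept their call whichever array was left out (TAF5L, LMNA, LMNB2, SETD3, CCL2, COPZ2, AKR1B10, GPX2 and HMMR), and 4 under every alternative run (TAF5L, SETD3, CCL2 and COPZ2). None of the 1086 recomputed changes of named genes turned sign. LMNB1 was called in 1 fit, without Lamin B2 Kd replicate 2. Of all called genes, 27 were called whichever array was left out (11 higher, 16 lower). The cause of these changes was not tested, beyond the smaller number of arrays where 1 is left out and of probes in the authors' table.
With 1 array left out, the called genes numbered 39 to 2050 and those changed at least 2-fold 27 to 171. The called genes that differ between the knockdowns numbered 22 to 894, and the genes with a probe detected in 1 condition only 29 to 51. The siRNA minus control difference in median intensity was then −7.10 to −1.15, and that in the share of spots well above background −0.52 to 1.19 percentage points, below 0 without Lamin B2 Kd replicate 2 or 3.
The called genes numbered 2700 with normexp background correction, 73 without a detection filter, 247 with the replicate block, 23 with 2 groups, 3237 with array weights and 4295 with the unadjusted p. Those changed at least 2-fold numbered 51 with quantile normalization, 53 in the authors' table, 42 without a detection filter, 15 with 2 groups and 138 with the unadjusted p. The called genes that differ between the knockdowns numbered 621 with the shift by the 75th percentile, 934 with normexp, 44 without a detection filter, 114 with the replicate block, 1205 with array weights and 610 with a shift by the median of the detected probes, an alternative chosen after seeing the data. The set numbers gave no sign of pairing, and a call lost under the replicate block is not a weaker effect. The 2-group alternative gives no value for the difference between the knockdowns. At least 2-fold changes were 43.4% rises as reported and 76.3% with the shift by the 75th percentile.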
